A study of Mus musculus with 9 samples.

Results

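The Cyp1 family comprises 3 genes of the mouse, Cyp1a1, Cyp1a2 and Cyp1b1, which encode the cytochrome P450 enzymes that clear the AHR ligand FICZ. They were taken by symbol from the 48795 genes of the deposited RNA-seq table, and all 3 were found. The libraries were made from organoids of colonic crypts, that is, cultures of the colon epithelium embedded in Matrigel and held in WENR, a medium with Wnt3a, EGF, Noggin and R-spondin that keeps them rich in stem cells. WT organoids and organoids labelled AHR KO received DMSO, the solvent, or 5 nM FICZ for 4 h. AHR KO organoids came, per the study's methods, from mice in which a Villin-driven Cre deletes a floxed Ahr allele in the epithelium, so that the deletion depends on that Cre and is limited to epithelial cells. The age of the mice was not given in the labels. There were 2 libraries of WT DMSO (numbered 2 and 3), 3 of WT FICZ (1, 2 and 3), 2 of AHR KO DMSO (1 and 3) and 2 of AHR KO FICZ (1 and 3). The methods call replicates biological, but the labels do not say whether numbers mark separate mice, so that p-values measure only the spread between these samples.

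AHR is a transcription factor that sits in the cytoplasm with heat shock proteins until a ligand binds. It then enters the nucleus, pairs with ARNT and binds short DNA elements with the core GCGTG near its target genes. The CYP1 enzymes are the best known of those targets, and they oxidise FICZ, a photoproduct of tryptophan, so that the ligand induces the enzymes that remove it. CYP1A1 is the classical inducible enzyme of the gut and other barrier tissues, CYP1A2 is chiefly an enzyme of the liver, and CYP1B1 is expressed in many tissues outside the liver.

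On the build GRCm38, GENCODE M21 places Cyp1a1 (ENSMUSG00000032315) at chr9:57687928-57703824 on the plus strand and Cyp1a2 (ENSMUSG00000032310) at chr9:57676937-57683703 on the minus strand. These gene models stand head to head with 4224 bases between them. Cyp1b1 (ENSMUSG00000024087) is at chr17:79701537-79715061 on the minus strand. The coding sequences of Cyp1a1 and Cyp1a2 were 76.8% identical over their aligned bases, against 55.6% for Cyp1a1 and Cyp1b1 and 54.8% for Cyp1a2 and Cyp1b1. Of the 1963 runs of 50 bases in Cyp1a2 transcripts, 94 also occurred in Cyp1a1 transcripts, while Cyp1b1 shared none with Cyp1a1 or Cyp1a2. Assignment of reads between Cyp1a1 and Cyp1a2 is therefore uncertain for those stretches.

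The 250 bases before the RefSeq start site of each gene (GRCm38.p6) are shown because they are the nearest stretches in which the AHR core can be looked for, and because Cyp1a1 and Cyp1b1 both rose with FICZ. Capitals mark GCGTG or, where the core lies on the other strand, CACGC. Each is written 5′ to 3′ on the strand of its gene, for Cyp1a1 chr9:57697363-57697612 (plus; its RefSeq start lies inside the GENCODE gene model), for Cyp1a2 chr9:57683656-57683905 (minus) and for Cyp1b1 chr17:79715062-79715311 (minus).
Cyp1a1: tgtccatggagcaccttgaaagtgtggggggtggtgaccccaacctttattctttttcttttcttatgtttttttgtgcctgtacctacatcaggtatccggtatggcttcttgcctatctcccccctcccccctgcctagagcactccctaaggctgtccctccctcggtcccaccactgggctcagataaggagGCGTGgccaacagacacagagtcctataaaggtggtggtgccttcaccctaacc
Cyp1a2: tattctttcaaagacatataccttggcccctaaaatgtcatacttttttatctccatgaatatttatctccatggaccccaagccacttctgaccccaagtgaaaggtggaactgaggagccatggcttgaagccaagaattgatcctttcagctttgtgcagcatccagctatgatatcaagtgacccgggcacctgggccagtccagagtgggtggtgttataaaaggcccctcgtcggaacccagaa
Cyp1b1: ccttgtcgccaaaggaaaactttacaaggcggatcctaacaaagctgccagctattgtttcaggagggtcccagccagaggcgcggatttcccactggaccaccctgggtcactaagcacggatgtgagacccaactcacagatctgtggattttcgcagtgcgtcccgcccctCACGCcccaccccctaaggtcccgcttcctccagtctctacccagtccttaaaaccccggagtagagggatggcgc
Cyp1a1 held 1 core, at positions -54 to -50 from the start site on its own strand, and Cyp1b1 held 1, at -76 to -72 on the opposite strand. Cyp1a2 held none. Of 32851 promoter windows of the same length in the RefSeq table, 28.2% held at least 1 core on either strand and 8.63% at least 2. The TATA box motif TATAAA, searched on the gene's own strand in the last 50 bases, stood at -30 to -25 in Cyp1a1 and at -29 to -24 in Cyp1a2, and was not in that window of Cyp1b1. It was found in 2.63% of all windows. These are matches of letters and not measured binding sites, and regulatory elements outside the windows were not searched.

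The deposited values of a library added up to 23177058 to 25033827, which corresponded to an estimated 21.6 to 30.2 M reads. Libraries of 1 group correlated across genes at r = 0.986 to 0.991 (6 pairs) and libraries of different groups at 0.964 to 0.983 (30 pairs). Ahr, the targeted gene, was counted at 787 and 858 in WT DMSO, 783 to 798 in WT FICZ, 1404 and 1346 in AHR KO DMSO, and 1443 and 1387 in AHR KO FICZ. Its counts were therefore higher, not lower, in the libraries labelled AHR KO. A count per gene does not show which exons are missing, and every direction below rests on the labels. All 8 epithelial markers (Epcam, Cdh1, Krt8, Krt18, Krt19, Krt20, Vil1 and Cdx2) were present in every library, Ptprc and Adgre1 of the 5 immune markers were at 0 throughout while Cd68 was counted at 475 to 712 and carried nearly all of that list's sum, and the summed level of 3 endothelial markers did not exceed 5.27.

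Without added ligand, Cyp1b1 was the one family member transcribed well above the detection limit, and its level depended on genotype. Its normalised count was 1632 and 1078 in the WT DMSO libraries and 34.5 and 25.4 in the AHR KO DMSO libraries. The groups did not overlap, and the lower WT library stood far above the higher AHR KO library. The mean fell from 1355 ± 392 (SD, n = 2) to 30.0 ± 6.44 (SD, n = 2), or to 2.21% of WT. In limma on log2(value + 1) the difference was -5.44 (SE 0.242, adjusted p = 7.77e-06, Benjamini-Hochberg over 12741 genes), the smallest p of all genes tested in that comparison. Of all genes tested, 4.83% were called lower and 4.21% higher in AHR KO under DMSO. In bulk organoids, fewer cells that express a gene and less RNA per cell cannot be told apart.

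Cyp1a1 was at the limit of detection in DMSO. WT DMSO libraries gave 5.84 and 0 normalised counts and AHR KO DMSO libraries 0 and 2.93, which correspond to about 6, 0, 0 and 3 reads. The groups overlapped. The limma difference of -0.40 (95% interval -2.14 to 1.34, adjusted p = 0.807) was within the spread, and a basal difference between genotypes was not detectable at this depth. Cyp1a2 was counted at 0 in all 4 DMSO libraries, where 0 over the libraries of a group allows up to 3 reads in that group. This floor and the intervals on folds given here cover counting error only.

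FICZ raised Cyp1a1 in WT organoids from that limit to one of the more abundant transcripts within 4 h. Its normalised counts in WT FICZ were 7797, 6987 and 7958, with a mean of 7581 ± 520 (SD, n = 3). The 3 libraries lay close together, and each was at least 1196 times the higher of the DMSO libraries. The ratio of the means was 2596, with a counting interval of 1213 to 7196 that is wide because the denominator rests on 6 reads. The WT DMSO mean of 2.92 was under 3 normalised counts and rested on those 6 reads, so that no exact size is read from this ratio. On the log2(value + 1) scale the rise was 11.50 (SE 0.715, adjusted p = 1.57e-05), the highest log2 change of the 12741 genes tested. The size rests on the low DMSO values, and it was 9.23 with a pseudocount of 10 and 13.26 with 0.1, 12.89 without WT DMSO replicate 2 and 10.11 without WT DMSO replicate 3. It was called in each of these. The gene passed the filter on low values (a mean of at least 10 over the libraries) only through its FICZ groups, so that some difference had to follow from its entry.

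Cyp1b1 started from a far higher base and rose less. Its counts in WT FICZ were 10220, 10600 and 8898, a mean of 9906 ± 893 (SD, n = 3), against 1632 and 1078 in WT DMSO. Every FICZ library lay above both DMSO libraries, by 5.45-fold to 9.83-fold over all pairs. The ratio of the means was 7.31, and the limma change was 2.90 (SE 0.221, 95% interval 2.40 to 3.39, adjusted p = 6.00e-05), the 9th highest of the genes tested. Of all genes tested, 15.1% were called higher and 15.7% lower in WT, and the call of Cyp1a1 is not read against these shares because of its entry through the filter.

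Cyp1a2 gave few reads even with FICZ. Its counts were 8.76, 2.05 and 2.99 in WT FICZ, or about 8, 2 and 3 reads, and 0 and 1.07 in AHR KO FICZ, where the latter is 1 read. All 3 WT FICZ libraries were above 0, where both WT DMSO libraries were at 0. With 13 reads in WT FICZ, 8 of them in replicate 1, and 0 in DMSO, no fold is given. Its mean was under the filter, and in the fit without a filter the limma change in WT was 2.30 (95% interval 1.07 to 3.53, adjusted p = 0.0208). The corresponding change in AHR KO was 0.53 (adjusted p = 0.677), and the difference between the changes was 1.77 (95% interval -0.05 to 3.60, adjusted p = 0.804). With all DMSO libraries at 0, these sizes depend on the pseudocount of 1, and no other pseudocount was run for this gene. In that fit, 1644 of 23637 genes were called higher and 1681 lower in WT with FICZ. Cyp1a2 entered it only through its FICZ groups, so its call is not read against these counts. In the same WT FICZ libraries the shared stretches named above could receive reads of Cyp1a1, which had about 21887 reads in all against 13 of Cyp1a2. Their part in the Cyp1a2 counts was not tested.

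**Figure D1:**
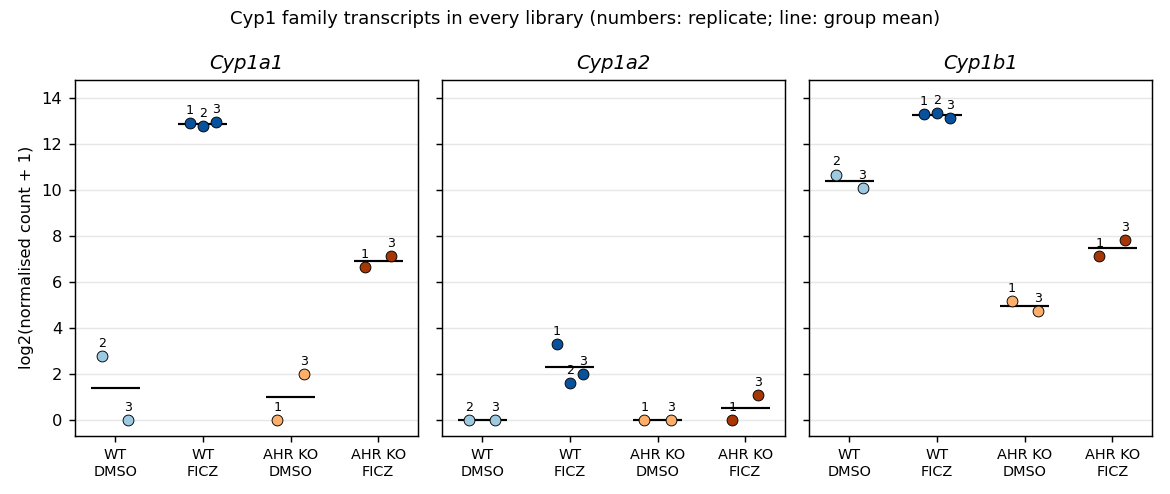
Log2(normalised count + 1) of Cyp1a1, Cyp1a2 and Cyp1b1 in each of the 9 libraries, with the replicate number beside each point and the group mean as a line. Cyp1a1 goes from 0 to 5.84 counts in DMSO to 6987 or more in WT FICZ, Cyp1a2 stays under 9 counts everywhere, and the AHR KO points of Cyp1b1 lie below all WT points.

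FICZ also raised Cyp1a1 and Cyp1b1 in organoids labelled AHR KO, to far lower levels. Cyp1a1 was counted at 100.3 and 138.8 in AHR KO FICZ, about 100 and 129 reads, against 0 and 2.93 in AHR KO DMSO. Both FICZ libraries stood above both DMSO libraries. The limma change was 5.91 (SE 0.783, adjusted p = 0.00209), and the ratio of the means was 81.7 with a counting interval of 30.5 to 440 that rests on 3 reads in the denominator. The AHR KO DMSO mean of 1.46 was under 3 normalised counts and rested on those 3 reads, so that no exact size is read from this ratio. The log2 change was 3.49 with a pseudocount of 10 and 7.75 with 0.1, 4.92 without AHR KO DMSO replicate 1 and 6.90 without AHR KO DMSO replicate 3, called in each. Here too the gene was among those tested only through its FICZ groups, so its call is not read against the share of all genes.

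Cyp1b1 was counted at 136.6 and 222.0 in AHR KO FICZ against 34.5 and 25.4 in AHR KO DMSO. The groups did not overlap. The mean of 179 ± 60.4 (SD, n = 2) was 5.98 times that in DMSO, and pairs of libraries differed by 3.96-fold to 8.74-fold. The limma change was 2.52 (SE 0.242, 95% interval 1.98 to 3.06, adjusted p = 0.00112), the 13th highest. Of all genes tested, 10.2% were called higher and 9.48% lower in AHR KO.

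Whether the FICZ change depended on genotype was tested as a difference of changes, WT less AHR KO. For Cyp1a1 the difference of the changes was 5.59 on the log2 scale (SE 1.06, 95% interval 3.23 to 7.95), with an unadjusted p of 0.000351 and an adjusted p of 0.0677 in limma, so that it was not called. It was the 2nd highest of all interactions, and the DMSO libraries behind it held 0 to 6 reads. A pseudocount of 10 in place of 1, which gives those low values less weight, gave 5.74 with an adjusted p of 4.14e-05, and leaving out WT DMSO replicate 2, the library with the 6 reads, gave 6.98 with an adjusted p of 0.00510. Over all alternatives the adjusted p ranged from 4.14e-05 to 0.644. For Cyp1b1 the difference was 0.38 (95% interval -0.35 to 1.11, adjusted p = 0.881), and the range over all pairs of libraries, 5.45-fold to 9.83-fold in WT and 3.96-fold to 8.74-fold in AHR KO, overlapped. The interval leaves room for a somewhat lower or more than 2-fold higher response in WT. The interaction was called for neither member, beside 0.377% of all genes called higher and 0.0706% lower. Since Cyp1a1 was tested only through its FICZ groups, its interaction and rank are not read against all genes.

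Under FICZ, both genes were far below WT in AHR KO, by nearly the same proportion. Cyp1a1 in AHR KO FICZ reached 1.58% of its WT FICZ mean, and every WT library was 50.3-fold to 79.3-fold above every AHR KO library. Cyp1b1 reached 1.81%, with pairs of libraries 40.1-fold to 77.6-fold apart. The limma differences were -5.99 for Cyp1a1 (SE 0.715, adjusted p = 0.000262) and -5.82 for Cyp1b1 (SE 0.221, adjusted p = 2.30e-07), the 2nd and 3rd lowest of the genes tested. All genes were called lower in 10.5% of cases and higher in 9.48%. Because Cyp1a1 was tested only through its FICZ groups, its rank and call are not read against all genes. The comparisons share libraries: each DMSO or FICZ group enters several of them, so their values are set side by side and not counted as separate evidence.

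The level that FICZ reached in AHR KO organoids lay on opposite sides of the unstimulated WT level for the 2 genes. Cyp1a1 in AHR KO FICZ (100.3 and 138.8) was above WT DMSO (5.84 and 0), with a limma difference of 5.51 (SE 0.783, adjusted p = 0.000672). That difference was 3.35 with a pseudocount of 10, 7.26 with 0.1, 6.90 without WT DMSO replicate 2 and 4.12 without WT DMSO replicate 3, called in each. Cyp1b1 in AHR KO FICZ (136.6 and 222.0) was below WT DMSO (1632 and 1078), at 13.2% of its mean, with a difference of -2.92 (SE 0.242, adjusted p = 5.66e-05). Genotype and treatment both differ in this comparison, in which 16.4% of all genes were called higher and 18.1% lower. The call of Cyp1a1 is not read against these shares, because the gene was tested only through its FICZ groups. For Cyp1b1 the order of the levels was thus WT FICZ, WT DMSO, AHR KO FICZ and AHR KO DMSO, and no neighbouring groups overlapped. For Cyp1a1 it was WT FICZ, AHR KO FICZ and then both DMSO groups, which overlapped.

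**Figure D2:**
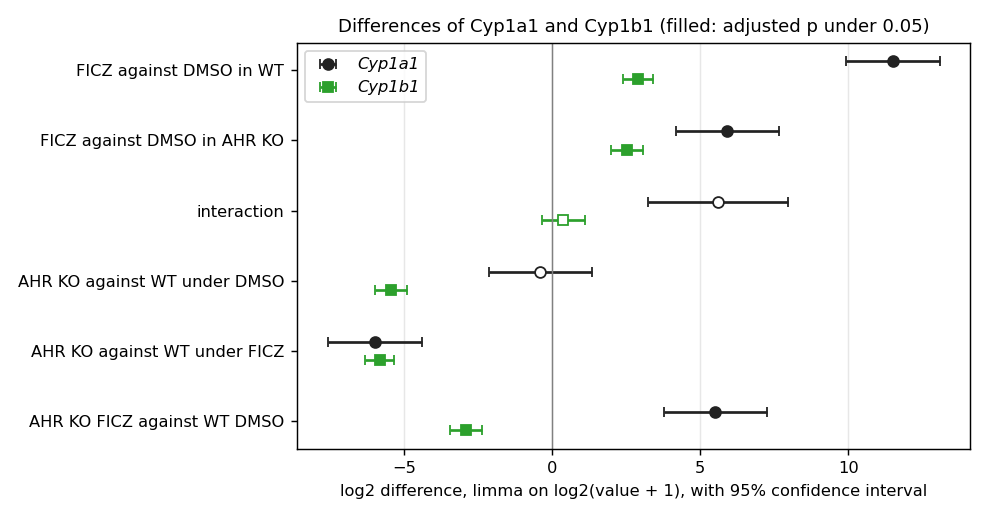
Log2 differences of Cyp1a1 (circles) and Cyp1b1 (squares) in the 6 comparisons, from limma on log2(value + 1), with 95% intervals and filled symbols where the adjusted p was under 0.05. The interval of Cyp1b1 in the interaction includes 0 (-0.35 to 1.11), and in AHR KO FICZ against WT DMSO the genes stand on opposite sides of 0 (5.51 and -2.92).

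Of the 7 fibroblast markers, Pdgfrb carried nearly all of the summed level, which followed the same order as Cyp1b1, with 87.5 to 111 in WT FICZ, 57.5 to 85.8 in WT DMSO, 32.9 to 39.1 in AHR KO FICZ and 19.4 to 32.8 in AHR KO DMSO. Lum was at 0 in every library and Col1a1, Col1a2, Col3a1, Pdgfra and Dcn did not exceed 4.34 in any. The part of Pdgfrb-expressing cells in the Cyp1b1 differences was not tested.

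Levels of different genes were compared only per kb of exon, using the union of the exons of each gene model (2787 bases for Cyp1a1, 2013 for Cyp1a2 and 5840 for Cyp1b1). The Cyp1 transcript pool, the sum of the 3 genes in normalised counts per kb, was 282 and 185 in WT DMSO. It was 4552, 4323 and 4381 in WT FICZ. AHR KO DMSO libraries gave 5.91 and 5.40, and AHR KO FICZ libraries 59.4 and 88.4. The pool in AHR KO with FICZ was thus below the pool of either WT DMSO library.

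FICZ changed which enzyme made up most of the pool. Cyp1b1 accounted for 99.3% and 100% of the pool per kb in WT DMSO, and Cyp1a1 for 0.745% and 0%. In WT FICZ Cyp1a1 accounted for 61.5%, 58.0% and 65.2%, a mean of 61.5% ± 3.60 (SD, n = 3), and Cyp1b1 for 38.4% ± 3.60 (SD, n = 3). In AHR KO FICZ, at a far smaller pool, the Cyp1a1 share was 60.6% and 56.4%, a mean of 58.5% ± 2.995 (SD, n = 2), which overlapped the WT range. In AHR KO DMSO the Cyp1a1 share was 0% and 19.4%, where the latter rests on 3 reads. Cyp1a2 made up 0.0236 to 0.0956% of the pool in WT FICZ, and its 0.604% in AHR KO FICZ replicate 3 rests on 1 read. In AHR KO DMSO the pool was too small for its share to be bounded closely by counts of 0. The mean Cyp1a1 share in each FICZ group was over 55% also with the length of the longest transcript in place of the union (59.2% in WT and 56.1% in AHR KO). By that length the share in AHR KO FICZ replicate 3 was 54.0%.

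Among 48349 genes ranked by mean normalised count per kb, Cyp1a1 moved from rank 15146 in WT DMSO to 382 in WT FICZ, past Cyp1b1, which moved from 4676 to 672. In WT DMSO 19093 of these genes were above 0, and the rank of Cyp1a1 there rests on the 6 reads of replicate 2. In AHR KO FICZ, Cyp1a1 ranked 9493 and Cyp1b1 10082.

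**Figure D3:**
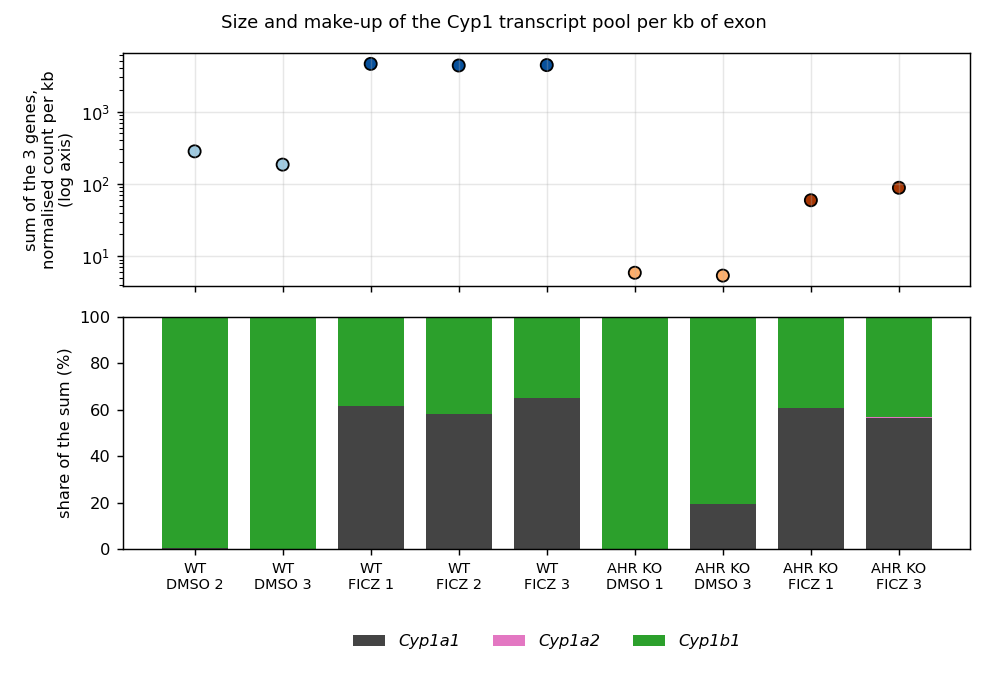
Top, sum of Cyp1a1, Cyp1a2 and Cyp1b1 in normalised counts per kb of exon in each library, on a log axis. Bottom, share of each gene in that sum, where Cyp1b1 makes up 80.6 to 100% in the DMSO libraries and Cyp1a1 56.4 to 65.2% in the FICZ libraries.

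The genes around the Cyp1 loci were examined by their distance from the members. Within 250 kb of the Cyp1a1 and Cyp1a2 pair lay 16 protein-coding genes, of which 14 were tested. With FICZ, 8 of them were called higher and 0 lower in WT, with changes over the 14 from -0.27 to 1.32, and 6 were called higher and 0 lower in AHR KO, with changes from -0.05 to 0.43. Of these 6 calls in AHR KO, 5 had an adjusted p of 0.0376 to 0.0486 in limma, and the alternative settings were not run for the neighbours. Of all genes tested, 15.1% were called higher in WT and 10.2% in AHR KO. Under FICZ, 7 were called lower and 0 higher in AHR KO against WT, beside 10.5% of all genes called lower. Under DMSO, 2 were called lower, Scamp5 (-0.42) and Rpp25 (-0.59), and 0 higher, beside 4.83% of all genes called lower. Around Cyp1b1, the only genes tested were Rmdn2 and Atl2, neither of which was called with FICZ in WT (0.68 and 0.06, adjusted p = 0.0635 and 0.395 in limma). Atl2 was called lower with FICZ in AHR KO (-0.20, adjusted p = 0.0411), and lower in AHR KO than in WT under DMSO (-0.24, adjusted p = 0.0339) and under FICZ (-0.50, adjusted p = 0.000136). Rmdn2 was called in none of these.

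Edc3, named here after its values were seen, is the next gene after Cyp1a1 on the same strand, and encodes an enhancer of mRNA decapping. Its gene model (chr9:57708540-57752499, plus strand) begins 4.72 kb beyond the end of Cyp1a1. Its counts were 889 and 944 in WT DMSO, 2286, 2275 and 2283 in WT FICZ, 824 and 898 in AHR KO DMSO, and 972 and 1074 in AHR KO FICZ. Every WT FICZ library was above all others. The limma change was 1.32 in WT (adjusted p = 3.22e-06) and 0.25 in AHR KO (adjusted p = 0.0383), and the difference between these was called (1.07, adjusted p = 0.000728).

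Clk3, a kinase gene on the opposite strand whose model overlaps the end of Edc3, was also named after its values were seen. It was counted at 1278 and 1222 in WT DMSO and at 1879, 1736 and 1899 in WT FICZ, with a change of 0.56 (adjusted p = 0.000352). In AHR KO the change was 0.02 (adjusted p = 0.879), and the difference between the changes was 0.54 (adjusted p = 0.0457). The libraries were stranded, but the strand setting of the counting is not stated in the sources used here, so that reads from the overlap cannot be assigned with certainty.

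**Figure D4:**
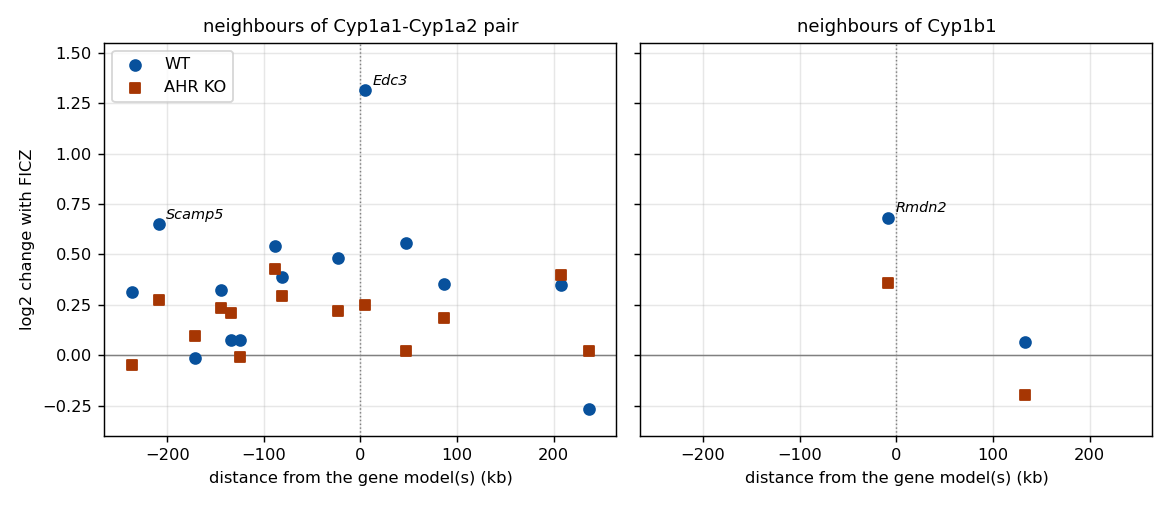
Log2 change with FICZ of the tested genes within 250 kb of the Cyp1a1 and Cyp1a2 pair (left) and of Cyp1b1 (right), in WT (circles) and AHR KO (squares), against distance in kb, with negative values toward lower chromosome positions. Edc3, at 4.72 kb, has the highest WT change of these genes (1.32), and its AHR KO change is 0.25.

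The pathway that switches the Cyp1 genes on was followed through 9 genes of AHR signalling, all tested. In WT, FICZ raised 2 and lowered 2 (median change of the list -0.07, of all genes -0.01), beside 15.1% of all genes called higher and 15.7% lower. Ahrr, among those raised, was tested only through its FICZ groups, so the count of higher calls is not read against that share. Ahrr, the AHR repressor, rose from a mean of 1.502 to 477 (7.56 on the log2 scale, adjusted p = 1.75e-06), and Tiparp, which also curbs AHR, rose from 1452 ± 45.5 (SD, n = 2) to 5212 ± 444 (SD, n = 3), a change of 1.84 (adjusted p = 1.86e-06). Hsp90aa1 and Hsp90ab1, chaperones of the receptor, fell by 0.50 and 0.25. Ahr itself and Arnt gave changes of -0.06 and 0.00, neither called. In AHR KO, Ahrr was called higher (4.18, adjusted p = 0.000474) at a mean of 17.1, and Hsp90aa1 was called lower, beside 10.2% of all genes called higher and 9.48% lower. The call of Ahrr is not read against these shares either. Tiparp gave 0.13 in AHR KO (adjusted p = 0.353). The difference between genotypes was called for Tiparp (1.71, adjusted p = 0.000155), beside 0.377% of all genes called higher and 0.0706% lower. It was also called for Ahrr (3.39, adjusted p = 0.01), which is not read against these shares. Ahrr averaged 1.502 in WT DMSO and was at 0 in both AHR KO DMSO libraries, under 3 normalised counts, and it passed the filter only through its FICZ groups. Its fitted changes and their difference therefore depend on the pseudocount, and no size and no basal difference between genotypes is read from it. Under DMSO, Tiparp was called lower in AHR KO by limma (-0.38, adjusted p = 0.0278) and Ahr higher (0.74), beside 4.83% of all genes called lower and 4.21% higher.

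CYP1 enzymes need electrons and haem to work. Of 7 genes for electron transfer and other P450 partners, 2 were called higher in WT with FICZ, Por, the reductase that feeds electrons to P450 enzymes (0.30, adjusted p = 0.0243), and Cyb5r3 (0.17), and 2 lower, Pgrmc2 (-0.24) and Cyb5b (-0.19). The list's median was 0.02, and 15.1% of all genes were called higher and 15.7% lower. In AHR KO, 1 was called, Pgrmc2 (-0.26), beside 10.2% of all genes called higher and 9.48% lower. Under DMSO, Por was lower in AHR KO than in WT (-0.51, adjusted p = 0.00787), and Ephx1, an epoxide hydrolase, was higher (0.84, adjusted p = 0.000231), as was Pgrmc1 (0.33), beside 4.83% of all genes called lower and 4.21% higher.

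Of 12 genes for the synthesis and breakdown of haem, 4 were called higher in WT with FICZ and 0 lower, with a list median of 0.21 against -0.01 for all genes, of which 15.1% were called higher and 15.7% lower. They were Cpox (0.61), Alas1, which encodes the first and rate-limiting enzyme of haem synthesis (0.58), Alad (0.42) and Urod (0.27), all on the synthesis side. In AHR KO, Alas1 (0.27) and Alad (0.44) were called higher and 0 lower, beside 10.2% of all genes called higher. Alad thus rose in both genotypes, and the difference between the changes was -0.02 (adjusted p = 0.982 in limma). Cpox differed between genotypes (0.73, adjusted p = 0.000928), with counts that averaged 2628 and 4000 in WT DMSO and FICZ and 2477 and 2277 in AHR KO.

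Products of the CYP1 enzymes are conjugated by UGT and SULT enzymes, among others. Of 13 UGT and SULT genes 6 were tested, and 2 were called higher in WT with FICZ and 0 lower, namely Ugt1a7c (0.85) and Ugt1a6a (0.64), with a list median of 0.42, beside 15.1% of all genes called higher. In AHR KO 0 of the 6 were called by limma, beside 10.2% of all genes called higher and 9.48% lower. Under DMSO, 5 of the 6 were lower in AHR KO, with Ugt1a6a at -2.51 and Ugt1a7c at -2.33 (adjusted p = 9.23e-05 and 2.38e-05) followed by Ugt1a1 (-2.04), Sult1b1 (-1.40) and Sult2b1 (-1.07). Of all genes, 4.83% were called lower there. Ugt1a genes share exons, so their split of reads is uncertain.

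No gene tested in a list of other P450 genes was called higher with FICZ. That list held the 91 further protein-coding genes whose symbols read Cyp, a number, letters and a number. P450 genes with symbols of another form were not in it. Of the 91, 39 were at 0 in every library and 16 were tested. In WT with FICZ 0 of the 16 were called higher and 1 lower (Cyp20a1, -0.29), with a list median of 0.22 beside 15.1% of all genes called higher and 15.7% lower, and in AHR KO 0 were called, beside 10.2% of all genes called higher and 9.48% lower. Under DMSO, Cyp2c65 (-1.64), Cyp2c55 (-1.35) and Cyp4f14 (-1.09) were called lower in AHR KO and 0 were called higher, beside 4.83% of all genes called lower.

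**Figure D5:**
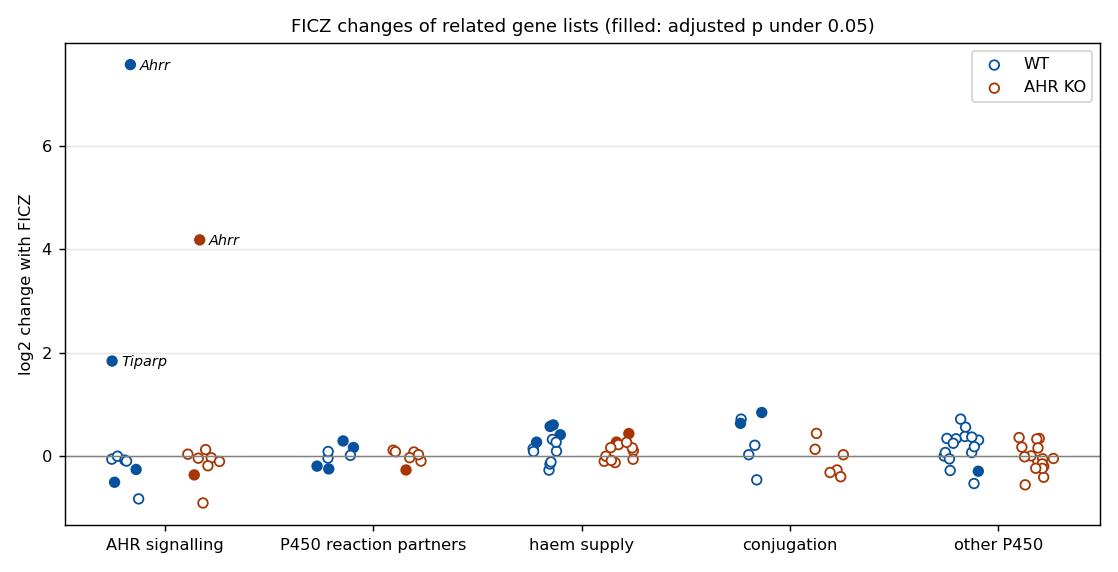
Log2 change with FICZ of the tested genes of 5 lists (AHR signalling, P450 reaction partners, haem supply, conjugation and other P450 genes) in WT and AHR KO, with filled points where the adjusted p was under 0.05. Tiparp is at 1.84 in WT and 0.13 in AHR KO. The points of Ahrr (7.56 in WT, 4.18 in AHR KO) depend on the pseudocount, since its mean DMSO levels were under 3 normalised counts.

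The genes whose log2 levels across the 9 libraries were most like those of each member were ranked by Pearson's r, as a description in which all points share the 4 groups. For Cyp1a1 they were Sema4b (0.986), C77080 (0.983), Atp5g3 (0.983), Tspan15 (0.982) and Ahrr (0.981). For Cyp1b1 they were Pink1 (0.992), Galns (0.989), Cntnap1 (0.989), Tnfaip3 (0.985) and Limk1 (0.984). The lists share no gene, and Cyp1a1 and Cyp1b1 correlated with each other at 0.744, which placed Cyp1b1 at rank 1872 for Cyp1a1. The Cyp1a1 levels in DMSO rest on 0 to 6 reads per library, so its r values and nearest genes depend on those reads and on the pseudocount. Likeness in pattern went with unlike size, as Sema4b moved only from a mean of 2318 to 2959 between WT DMSO and WT FICZ, and Pink1 from 650 to 798.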

How the data were processed

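RNA-seq was performed on 9 libraries of mouse colon organoids. The authors deposited normalised counts per Ensembl gene, a signal that need not be whole. Per the labels, RSEM 1.2.31, STAR 2.5.2a, DESeq2 1.16.1 and GRCm38 were used, while the methods of the study name summarizeOverlaps on mm10 and DESeq2. Which of these scaled the table, and with which annotation, is not given in the sources used here. Of the low values above 0 in a library, only 39.8 to 59.4% were whole multiples of a per-library step (tolerance 0.02). Counts were therefore not recovered, read numbers are estimates and no count model was fitted. No value column was left unused.

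Symbols came from GENCODE M21 (99.09% of identifiers matched) and promoters from RefSeq, in which all 3 members were matched. Values were transformed as log2(value + 1), which understates the change of low genes, and the 12741 genes with a mean of 10 or more were fitted with limma 3.58.1 (R 4.3.3, lmFit and eBayes with trend) on 4 group coefficients over all libraries, two-sided, with Benjamini-Hochberg adjustment over all genes tested and calls under 0.05. The script was tested on simulated data. The 3 members are named whatever their values, the other genes by list, distance (250 kb) or correlation (5 per member). Some listed genes are not reported here. Members, lists and tests were chosen with earlier results of these data known. Alternatives were a pseudocount of 0.1 or 10, no filter or a mean of 100, median-of-ratios or quantile scaling, fits to the groups compared, robust eBayes, a replicate block, the organoid line as a random effect, a GC and length correction, and leaving out each library.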

Additional observations from a re-analysis of the deposited data

Results flagged for a closer look

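Among the 66 list genes and neighbours tested beside the Cyp1 family, 5 were called in a test of whether the FICZ change differed between WT and AHR KO (the limma interaction), all higher in WT and 0 lower. Of all genes tested, 0.377% were called higher and 0.0706% lower. The difference was 1.71 on the log2 scale for Tiparp (adjusted p = 0.000155), 0.73 for Cpox (adjusted p = 0.000928), 1.07 for Edc3 (adjusted p = 0.000728) and 0.54 for Clk3 (adjusted p = 0.0457). The fifth was Ahrr (3.39, adjusted p = 0.01), whose mean DMSO levels were under 3 normalised counts, so that the value depends on the pseudocount and is given with no reading. Since Ahrr was tested only through its FICZ groups, the count of 5 is not read against the shares of all genes. No group had 4 or more libraries, so that no library was compared with its group for standing apart.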

How the results depend on the processing

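Of 250 alternative values for Cyp1a1 and Cyp1b1 in the 6 comparisons, 244 kept their direction and their side of the threshold. All exceptions concern Cyp1a1. Its interaction passed the threshold with a pseudocount of 10 (5.74, adjusted p = 4.14e-05 in limma) and without WT DMSO replicate 2 (6.98), and ranged from 4.20 to 6.98 over single libraries left out. Its difference between AHR KO and WT under DMSO, -0.40, turned to 0.33 with a replicate block, to 0.33 with that block and the GC and length correction, to 0.99 without WT DMSO replicate 2 and to 0.59 without AHR KO DMSO replicate 1 (range -1.79 to 0.99). Deviations from the group means correlated weakly between libraries with the same number (r = 0.035 to 0.05 within a genotype and -0.078 to 0.019 across genotypes). In groups of 2 libraries the deviations mirror each other, so r cannot settle whether the numbers pair libraries. The replicate block gave 3412 genes in place of 3928 called in WT and changed no call of either gene. With the organoid line as a random effect, 4104 genes were called in WT and 2748 in AHR KO. The number of genes called in WT with FICZ fell to 2336 with GC and length removed, to 1882 with the replicate block as well, and ranged from 1993 to 4135 without 1 library, the lowest without WT DMSO replicate 2. In AHR KO, 2509 became 670 with GC and length removed, 523 with the replicate block as well, and 419 to 2957 without 1 library, the lowest without AHR KO DMSO replicate 1. Without 1 library, the counts ran from 23 to 78 for the interaction (57), from 389 to 1473 for AHR KO against WT under DMSO (1153), from 1324 to 3089 under FICZ (2544) and from 2818 to 4790 for AHR KO FICZ against WT DMSO (4398). Where a group was left with 1 library, that library was assumed to vary like the others. The causes were not tested. Under the other scalings the median change of all genes lay between -0.022 and 0.007. The Cyp1a1 share of the pool ranged from 59.7 to 63.3% in WT FICZ and from 56.4 to 60.6% in AHR KO FICZ without 1 library. Depth limits what can be said of Cyp1a1 in DMSO and of Cyp1a2, with 0 to 8 reads per library.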
